A study of Mus musculus with 230 samples.

Results

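The transcripts described are those of 10 genes of the p53 and mitochondrial cell death pathway, out of 53278 genes counted: Trp53, Trp53i11, Cdkn1a, Mdm2, Bbc3, Hrk, Bcl2l11, Bax, Bcl2 and Bcl2l1. They were chosen by name for their place in the pathway, with earlier results of these data known. All 10 passed the filter on low counts, so each was tested. Hrk passed it only through its injured libraries, and Trp53i11 needed its injured libraries to pass. RNA came from sensory neurons picked by hand from dissociated L4 and L5 dorsal root ganglia of C57BL/6 X CAST/Ei mice, all groups being of this 1 cross. The low-input libraries formed 6 groups of 3, of injured (sciatic nerve injury) or intact neurons at 1, 8 and 12 months of age. Single cells, measured from cytoplasm, were 21 injured and 18 intact at 1 month and 22 injured and 8 intact at 1 year. The labels give no time after injury, no number of neurons or animals behind a low-input library and no animal for a cell, and do not say whether intact neurons came from other mice than the injured ones. The names of all 9 intact low-input libraries and all 26 intact cells carry an l or L where those of all 9 injured libraries and 43 injured cells carry an r or R, letters that the labels do not explain; what they stand for cannot be told apart from condition. Replicates may therefore be technical, and p-values measure the spread between these libraries.

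p53, the product of Trp53, is a transcription factor that is held low by the ubiquitin ligase Mdm2, itself a p53 target. Its other targets include Cdkn1a, the cyclin-dependent kinase inhibitor p21, and Bbc3, the BH3-only protein Puma. BH3-only proteins (Bbc3, Hrk, Bcl2l11) neutralise the guardians Bcl2 and Bcl2l1 and so release Bax, which permeabilises the mitochondrial outer membrane and starts caspase activation. In developing sensory neurons, Hrk and Bcl2l11 are known as genes that the JNK and c-Jun pathway induces when trophic support is withdrawn, and p21 is known as a gene that axotomised sensory neurons induce.

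Bases upstream of 1 RefSeq start are shown for each of Cdkn1a, Trp53i11 and Hrk, the genes whose RNA passed the injury test given further on. They are from GRCm38.p6 and read 5′ to 3′ on the plus strand, on which all 3 genes lie. Capitals mark a p53 element, defined as 2 adjacent 10-base p53 half-sites with at most 1 letter off the consensus. The Hrk start used, 118169764, lies inside the counted gene, which begins at 118164648. The last 16 of the 250 bases before that start are annotated as exon of Hrk, so 234 are printed.
Cdkn1a, chr17:29090729-29090978: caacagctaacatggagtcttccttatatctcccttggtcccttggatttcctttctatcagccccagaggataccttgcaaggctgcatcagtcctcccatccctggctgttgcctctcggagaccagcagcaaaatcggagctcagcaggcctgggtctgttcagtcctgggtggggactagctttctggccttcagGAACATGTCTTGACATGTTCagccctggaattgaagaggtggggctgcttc
Trp53i11, chr2:93187298-93187547: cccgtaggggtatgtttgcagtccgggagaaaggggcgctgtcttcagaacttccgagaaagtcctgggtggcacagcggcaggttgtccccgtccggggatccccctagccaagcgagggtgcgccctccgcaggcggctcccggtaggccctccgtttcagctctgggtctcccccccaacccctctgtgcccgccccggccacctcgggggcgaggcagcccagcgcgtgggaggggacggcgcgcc
Hrk, chr5:118169514-118169747: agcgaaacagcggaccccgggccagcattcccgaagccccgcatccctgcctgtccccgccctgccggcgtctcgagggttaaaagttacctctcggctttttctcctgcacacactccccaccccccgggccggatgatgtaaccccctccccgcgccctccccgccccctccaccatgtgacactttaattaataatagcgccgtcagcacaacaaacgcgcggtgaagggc
The Cdkn1a element, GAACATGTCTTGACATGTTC, began 51 bases before the start and had 1 letter off. The start meant is 29090979, 1 of the RefSeq starts of the gene. The window before the other Cdkn1a start, 29093519 to 29093768, held no such element and is not shown. Each of the 10 genes had at least 1 RefSeq window, 16 in all, and the 250 bases before the start were searched on both strands. The Cdkn1a window shown was the 1 window of the 16 with such an element, against 25 of 32851 windows of all genes (0.0761%). The rule on letters off was set after this window had been seen; with 0 letters off, 3 windows of all genes held an element and none of the 16 did. The AP-1 motif TGANTCA and the cAMP response element TGACGTCA, neither of which contains the other and which are read by Jun and Atf family factors, were in 0 of the 16 windows, against 6.75% and 1.55% of all windows. A match is a stretch of letters, not a measured binding site, and no match says only that these letters are not in the window.

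Low-input libraries held 7531967 to 19443627 endogenous counts, of which 770328 to 11587094 lay outside the noncoding feature CT010467.1 that dominated the table. Its share did not overlap between conditions at any age, being 35.7% to 39.8% in injured against 40.4% to 45.3% in intact libraries at 1 month, 41.6% to 59.7% against 65.7% to 68.2% at 8 months, and 29.4% to 39% against 64.2% to 93.8% at 12 months. Intact 12-month replicate 2 stood apart, with the 770328 counts, 93.8% in that feature, 40.5% mitochondrial counts among the rest and a summed level of 9 neuronal markers of 2801 CPM (counts scaled to the library size), against 12083 or more in the other 17 libraries. Injury markers fitted the labels in every library: 5 markers summed to 1254 to 7369 CPM with injury and 2.60 to 54.2 CPM without. Satellite glia transcripts were higher with injury too: 6 markers summed to 3252 to 5008 against 225 to 1557 CPM at 1 month, 888 to 1738 against 230 to 1226 at 8 months and 289 to 1083 against 113 to 534 at 12 months, with all 6 detected except in the intact 12-month group, where 5 were. Schwann cell markers (5 or 6 of 6 detected) summed to 787 to 1372 CPM with injury and 279 to 2253 CPM without. Endothelial and fibroblast markers (3 to 5 of 5 detected) were lower in level and did not overlap between conditions at any age: 66.6 to 143.8 against 5.45 to 17.7 CPM at 1 month, 36.7 to 128.7 against 2.02 to 24 at 8 months and 63 to 116.1 against 0 to 55.8 at 12 months. Macrophage and immune markers (3 to 8 of 8 detected) did not overlap at 8 months, at 14.2 to 24.7 against 0 to 10.5 CPM, and were at most 29.6 CPM in every library. The part of all these cell types in the results was not tested. Every library of 1 and 8 months had Y-linked counts and no library of 12 months did, so comparisons of 12 months with a younger age cannot be told apart from sex.

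Of the 10 genes, 3 rose with injury when the ages were averaged: Cdkn1a, Trp53i11 and Hrk. They are a cell cycle inhibitor, a p53-inducible gene and a BH3-only gene. The other 7, among them Trp53 itself, its regulator Mdm2, the effector Bax and both guardians, did not pass the test. A call is an adjusted p below 0.05 by edgeR's quasi-likelihood test with Benjamini-Hochberg adjustment over 14212 genes, and in this contrast 6.18% of those genes were called (726 higher and 152 lower). The 10 genes were chosen with earlier results of these data known, so 3 of 10 is not a rate for the pathway. In libraries that pool neurons, fewer cells expressing a gene and less RNA of it per cell cannot be told apart.

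**Figure D1:**
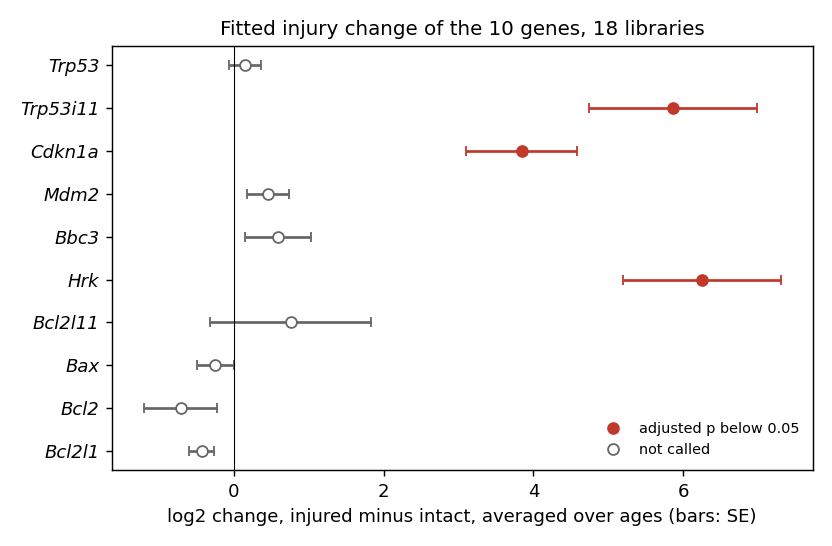
Fitted log2 change (x axis, injured minus intact, averaged over 1, 8 and 12 months) of each of the 10 genes over 18 libraries. Points are estimates, bars are standard errors and filled points passed the test. Cdkn1a, Trp53i11 and Hrk lie at 3.84, 5.86 and 6.25, and the other 7 lie between -0.71 and 0.76.

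Cdkn1a (GRCm38, chromosome 17, 29090979 to 29100722, plus strand) encodes p21, which blocks cyclin-dependent kinases. At 1 month its level in the 3 injured libraries was 123, 50.3 and 33.7 CPM, against 24.2, 5.26 and 28.5 CPM in the intact ones. At 8 months the injured libraries held 72.8, 101 and 60 CPM and the intact ones 0, 13.1 and 3.12 CPM. At 12 months the injured libraries held 114, 173 and 107 CPM and the intact ones 1.03, 16.3 and 0.217 CPM. The lowest injured library was above the highest intact library of its age each time, by little at 1 month. Over all ages the level was 92.9 ± 43.2 CPM with injury and 10.2 ± 10.8 CPM without (SD, n = 9 each), and the fitted log2 change was 3.84 ± 0.74 (SE; adjusted p = 0.00565). The 16.3 CPM of the intact 12-month group is 9 counts in the library that stood apart; without that library the averaged change was 4.40, adjusted p = 0.00256.

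At single ages Cdkn1a missed the threshold, with fitted log2 changes of 1.84 ± 1.09 at 1 month (adjusted p = 1), 3.86 ± 1.20 at 8 months (adjusted p = 0.161) and 5.83 ± 1.52 at 12 months (adjusted p = 0.0505). Without intact 12-month replicate 2 the 12-month change was 7.48 and passed (adjusted p = 0.0169), and it also passed without any 1 of the 3 intact 8-month libraries (adjusted p of 0.0147, 0.0325 and 0.0449). DESeq2 (4.52, adjusted p = 0.0152) and limma-voom (6.83, adjusted p = 0.0279) called it at 12 months, where they called 8.71% and 2.84% of all genes. The estimates differ in size between the ages, but the joint test of injury by age gave p = 0.116 and an adjusted p of 0.73 for Cdkn1a.

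Trp53i11 (chromosome 2, 93187548 to 93201759, plus strand) is a p53-inducible gene. At 1 month the injured libraries were at 11.9, 3.46 and 2.47 CPM and the intact ones at 0, 0.0342 and 0.173 CPM, the last 2 from 1 and 3 counts. At 12 months the injured libraries held 32.2, 37.4 and 9.47 CPM, from 513, 638 and 130 counts, and the 3 intact libraries held 0 counts. At these ages the conditions were fully separated. At 8 months they overlapped, with 10.3, 4.93 and 4.92 CPM after injury and 20.1, 2.05 and 0 CPM without it, so that intact 8-month replicate 1 (195 counts) exceeded every injured library of its age.

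The averaged log2 change of Trp53i11 was 5.86 ± 1.12 (adjusted p = 0.00649). At 12 months it was the 1 gene of the 10 that passed (adjusted p = 0.0376), in a contrast where 2.99% of all genes were called. Against a floor of 3 counts over the intact 12-month group, its pooled level there was 154-fold higher, a ratio that leaves out the spread between libraries. The fitted change of 11.45 ± 2.68 depends on a prior count and is no bound. The 12-month call is close to the threshold: it was lost on leaving out any of 10 of the 18 libraries, namely intact 1-month replicate 2, injured 1-month replicates 2 and 3, intact 12-month replicates 1 and 3, all 3 injured 12-month replicates, and injured 8-month replicates 2 and 3 (adjusted p over all 18, 0.00606 to 0.105). It was also lost with the replicate block at 1 month, the age at which the numbers were taken to pair the libraries (adjusted p = 0.0671), and with limma-voom (adjusted p = 0.0567). At 8 months the fitted change was -0.14 ± 1.16, and 2.76 without intact 8-month replicate 1.

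Hrk (chromosome 5, 118164648 to 118189478, plus strand), the BH3-only gene harakiri, was the member closest to silent in intact neurons. Of the 9 intact libraries 8 had 0 counts and 1, at 1 month, had 3 counts (0.103 CPM). Injured libraries held 3.03, 0.641 and 1.33 CPM at 1 month, from 50, 10 and 15 counts. At 8 months they held 0.0925, 1.46 and 1.71 CPM, from 1, 21 and 25 counts, and at 12 months 0.816, 0.644 and 1.82 CPM, from 13, 11 and 25 counts. Every injured library had a count, and the 2 conditions did not overlap at any age, although injured 8-month replicate 1 rests on 1 count.

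The averaged fitted log2 change of Hrk was 6.25 ± 1.05 (adjusted p = 0.0033), again a value that depends on the prior count. Hrk entered the test only through the injured libraries, in which it is high. By counts, the pooled injured libraries were 47.3-fold above the pooled intact ones, with an exact interval of 15.9 to 232 that covers counting error only. At single ages the pooled level was 12.2-fold higher at 8 months and 5.89-fold higher at 12 months against a floor of 3 counts over the intact group. It was 34.5-fold higher (11.4 to 171) at 1 month. These ratios also leave out the spread between libraries. No single age passed the test: the adjusted p was 0.366, 0.111 and 0.125 at 1, 8 and 12 months.

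**Figure D2:**
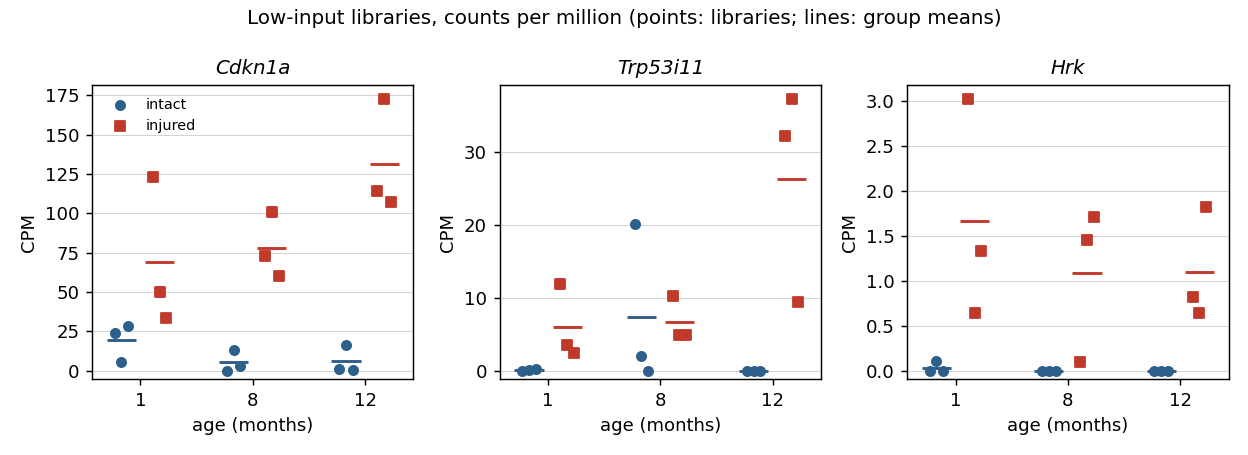
Level in CPM (y axis) of Cdkn1a, Trp53i11 and Hrk in the 18 low-input libraries by age in months (x axis); points are libraries, circles intact and squares injured, and lines are group means. Injured libraries lie above intact ones at every age for Cdkn1a and Hrk, while for Trp53i11 an intact 8-month library at 20.1 CPM lies above the injured ones.

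Across the 3 ages, Cdkn1a and Hrk were 2 of the 10 genes with every injured library above every intact library of the same age. Among all genes tested, 260 (1.83%) had that pattern and 17 (0.12%) had the reverse one. Hrk was among the genes tested only through its injured libraries, so its place in this pattern is no separate support. None of the 10 genes was lower throughout.

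All 3 averaged calls stood on leaving out any 1 of the 18 libraries (adjusted p of 0.00184 to 0.0164 for Cdkn1a, 0.000361 to 0.019 for Trp53i11 and 0.00156 to 0.00947 for Hrk). The replicate block within age, which also pairs ages whose numbers did not pair, ended the call of Hrk (adjusted p = 0.0633). When the dominant feature's share entered the model as a covariate, none of the 3 was called, at log2 changes of 6.05, 6.84 and 1.98 (adjusted p of 0.174, 0.234 and 0.549), and 11 of all genes were called. That share and the injury cannot be told apart here, since they do not overlap within an age.

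Trp53 (chromosome 11, 69580359 to 69591873, plus strand) gave 8.61 ± 0.54 CPM with injury and 9.06 ± 1.77 CPM without at 1 month (SD, n = 3 each, as for the values that follow). It gave 13.3 ± 3.55 against 12.4 ± 4.84 CPM at 8 months and 10.8 ± 1.21 against 7.28 ± 3.72 CPM at 12 months. The conditions overlapped at every age. The averaged log2 change was 0.15 (adjusted p = 0.747).

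Mdm2 (chromosome 10, 117688875 to 117710758, minus strand), the ubiquitin ligase that limits p53, held 9.56, 9.62 and 13.9 CPM in injured against 3.15, 11.6 and 6.46 CPM in intact libraries at 1 month, and 13.6, 8.33 and 8.19 against 3.40, 14.7 and 9.28 CPM at 8 months. At 12 months the injured libraries held 18.5, 15.8 and 17.1 CPM and the intact ones 11.2, 9.03 and 12.8 CPM, the 1 age without overlap. The averaged log2 change of 0.46 did not pass (adjusted p = 0.39).

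Bbc3 (chromosome 7, 16308393 to 16318205, plus strand), the p53 target that encodes Puma, was low throughout. Its injured libraries were above the intact ones at 1 month (2.12, 1.67 and 1.59 against 1.05, 0.615 and 1.27 CPM) and at 12 months (1.19, 2.11 and 2.11 against 0.599, 0 and 1.09 CPM). At 8 months they were not, with 3.98, 1.46 and 1.09 against 4.64, 3.24 and 0.739 CPM. The averaged log2 change was 0.59 (adjusted p = 0.491). As with Trp53i11, the highest intact value was in 8-month replicate 1.

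Bcl2l11 (chromosome 2, 128126038 to 128162547, plus strand) encodes Bim. It was near the floor, with 0 to 17 counts in every library except intact 8-month replicate 1, which held 38 counts (3.91 CPM). In the intact 12-month group it had 0 counts in all 3 libraries, and the injured group had 6, 0 and 3. Against a floor of 3 counts over the intact group this is 1.08-fold higher. That ratio leaves out error in the injured counts and the spread between libraries, so it is no lower bound. The averaged log2 change was 0.76 (adjusted p = 0.753), and its sign turned with DESeq2 (-0.25).

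The effector Bax (chromosome 7, 45461697 to 45466898, minus strand) was in injured libraries at 18.2 ± 4.31, 19.4 ± 0.50 and 17.5 ± 0.78 CPM at 1, 8 and 12 months. In intact libraries it was at 22 ± 6.92, 26.2 ± 13 and 16.3 ± 11 CPM. The last mean includes 3.61 CPM, from 2 counts, in the library that stood apart; the other 2 held 21.5 and 23.7 CPM. The averaged log2 change was -0.25 (adjusted p = 0.63). The gene overlaps Gm45808 by 192 bp, to which 0 counts were assigned.

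The guardian Bcl2 (chromosome 1, 106538178 to 106714274, minus strand) held 11, 10 and 6.19 CPM with injury and 26.5, 12.3 and 12.1 CPM without at 1 month, with no overlap. At 8 months it held 1.30, 11.9 and 3.48 against 4.43, 10.5 and 0.411 CPM, and at 12 months 7.53, 2.40 and 4.74 against 12.3, 23.5 and 5.87 CPM, with overlap at both ages. Its means over all ages were 6.50 ± 3.86 and 12.0 ± 8.48 CPM (n = 9 each), and the averaged log2 change of -0.71 did not pass (adjusted p = 0.45). Its exons overlap D630008O14Rik by 558 bp, to which 1 count was assigned.

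Bcl2l1 (chromosome 2, 152780668 to 152831728, minus strand), which encodes the guardian Bcl-xL, was at 16.3 to 36.8 CPM in every library. Injured libraries of 1 month held 17.2, 31.3 and 24.2 CPM, those of 8 months 18.3, 24.6 and 32.4 CPM and those of 12 months 20.3, 16.3 and 20.6 CPM. Intact libraries held 36.8, 25.6 and 26.4, then 28.2, 33.4 and 34.6, then 24.1, 36.1 and 31.3 CPM. The conditions were separated at 12 months alone. Means over the ages were 22.8 ± 5.86 against 30.7 ± 4.79 CPM (n = 9 each). The log2 change was -0.43 ± 0.17 (p = 0.0207, adjusted p = 0.15).

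The signs of Bcl2, Bcl2l1 and Bax depend on the scaling: with libraries scaled to their spike-in totals the averaged log2 change was 2.21, 2.57 and 2.45, while the median over all genes moved from 0.03 to 2.90. The changes of these 3 genes were below that median, as they were in the original scaling.

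**Figure D3:**
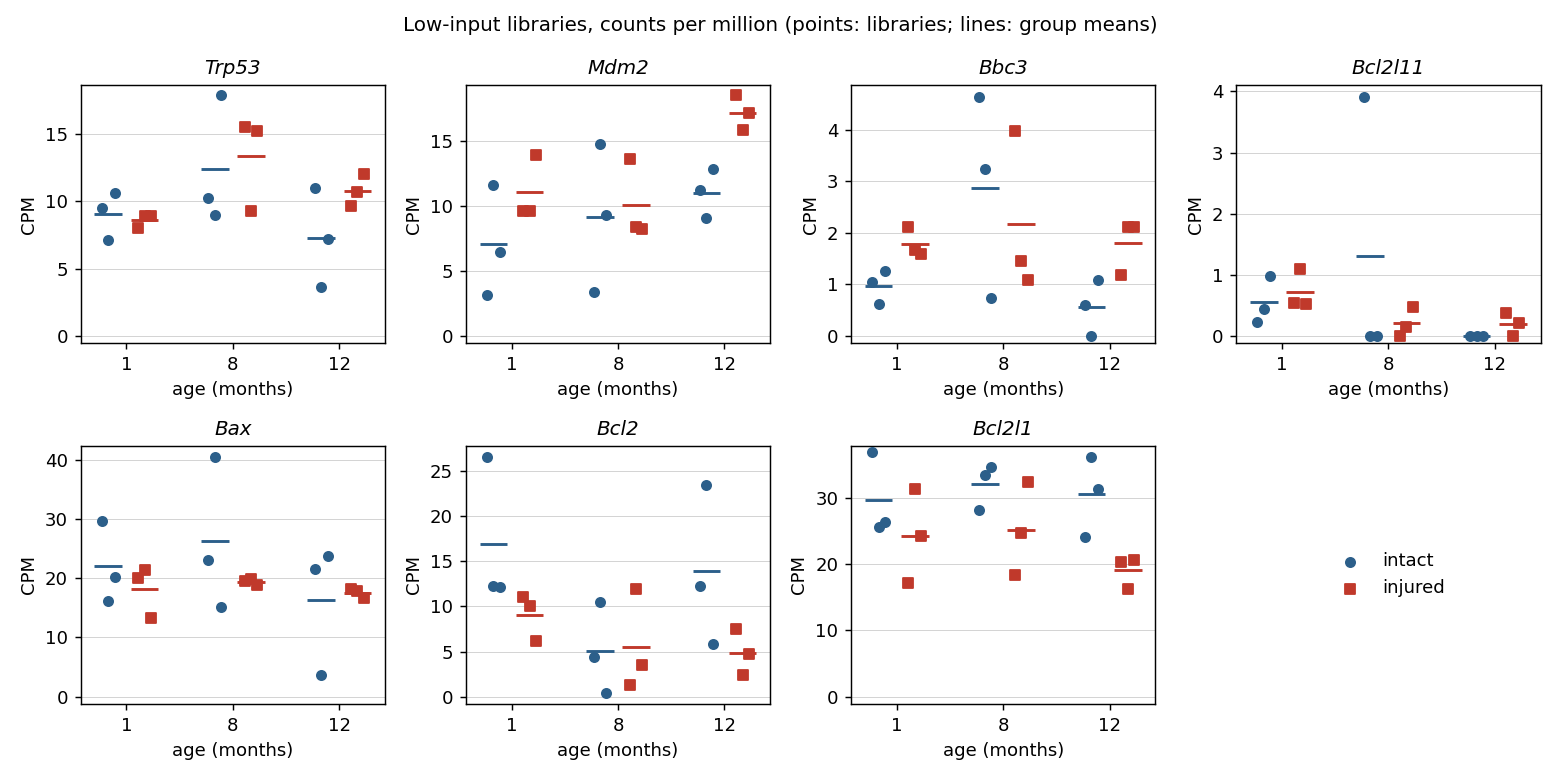
Level in CPM (y axis, own scale in each panel) of Trp53, Mdm2, Bbc3, Bcl2l11, Bax, Bcl2 and Bcl2l1 by age in months (x axis) in the 18 low-input libraries; points are libraries, circles intact and squares injured, and lines are group means. The conditions overlap at most ages, and 1 intact 8-month library stands out for Bcl2l11 at 3.91 CPM.

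Levels of different genes were compared per length, as FPKM (CPM divided by the exon length in kilobases), over 9 libraries of each condition. In intact neurons Bax was highest (13.7 ± 6.45 FPKM), followed by Bcl2l1 (6.70 ± 1.04), Cdkn1a (4.58 ± 4.87), Trp53 (2.37 ± 0.96), Mdm2 (1.78 ± 0.79) and Bcl2 (1.31 ± 0.93). Bbc3 (0.693 ± 0.701) and Trp53i11 (0.673 ± 1.80) came next, and Bcl2l11 (0.077 ± 0.159) and Hrk (0.00201 ± 0.00602) were last. Bax lay above Bcl2l1 by more than either SD, and every other neighbouring pair differed by less than the larger of its SDs. In injured neurons Cdkn1a led at 41.8 ± 19.4 FPKM, above Bax (11.7 ± 1.5), Bcl2l1 (4.98 ± 1.28), Trp53i11 (3.52 ± 3.48), Trp53 (2.70 ± 0.69) and Mdm2 (2.50 ± 0.77). Bbc3 (0.906 ± 0.406), Bcl2 (0.71 ± 0.42), Hrk (0.226 ± 0.153) and Bcl2l11 (0.0467 ± 0.0426) followed. Bcl2l1 and Trp53i11, Trp53i11 and Trp53, Trp53 and Mdm2, and Bbc3 and Bcl2 were neighbours that differed by less than the larger SD, and the other neighbours differed by more.

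None of the 10 genes passed in the injury contrast at 1 month or at 8 months, where 0.232% and 0.957% of all genes were called. At an unadjusted p below 0.05 there were 2 of the 10 at each of these ages, Trp53i11 (0.00174) and Hrk (0.00296) at 1 month and Hrk (0.00238) and Cdkn1a (0.00568) at 8 months, against 4.5% and 12.2% of all genes. DESeq2 called 1 of the 10 at each of these ages, Trp53i11 at 1 month (adjusted p = 0.00153) and Hrk at 8 months (adjusted p = 0.0236), against 0.865% and 3.75% of all genes, while limma-voom called none. Trp53i11 also passed at 1 month without intact 8-month replicate 1 or replicate 3 (adjusted p of 0.046 and 0.0334). In the age comparisons edgeR called none of the 10 either; at an unadjusted p below 0.05 there were 1 for intact 8 against 1 month, 3 for intact 12 against 8 months and 0 in the other 4. Of all genes 16.2% and 25.3% were below it in the former 2 comparisons, so these counts of the 10 are near the background; in the other 4 it was 10.7% (intact 12 against 1 month), 4.99%, 3.86% and 4.29% (injured, 8 against 1, 12 against 1 and 12 against 8 months). The share of all genes called was 0.922% for 8 against 1 month, 0.246% for 12 against 1 month and 6.69% for 12 against 8 months in intact neurons, and 0.225%, 0.113% and 0.0633% in the same comparisons of injured neurons. DESeq2 called 1 of the 10, Trp53i11, in intact neurons at 8 against 1 month and at 12 against 8 months, where it called 5.92% and 15.6% of all genes. The intact 8-month group has 195, 19 and 0 counts of this gene, and without its replicate 3, the library with 0 counts, edgeR called this gene in both (adjusted p of 0.0112 and 0.0105).

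The injury by age interaction called 0 of 14212 genes (0%) with edgeR, with 1161 (8.17%) at an unadjusted p below 0.05; limma-voom called 0 and DESeq2 207 (1.46%). Among the 10 genes Trp53i11 had the smallest p, 0.00299 (adjusted p = 0.346), and was called by DESeq2 (adjusted p = 0.00993). The sizes of the injury changes at different ages were thus not shown to differ by the main test.

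Genes from the wider pathway were described from 5 lists, in a contrast where 5.11% of all genes were called higher. Among 27 other p53 targets, 24 were tested and 2 rose: Gadd45a, a growth arrest and stress gene, from 4.56 ± 1.93 to 20.9 ± 9.57 CPM (log2 change 2.11 ± 0.29, adjusted p = 0.000261), and Btg2, an antiproliferative gene, from 2.27 ± 1.30 to 7.90 ± 3.07 CPM (1.82 ± 0.37, adjusted p = 0.00673; n = 9 each). None was lower, a count of 2 of 24 is near that background, and the list's median of 0.26 compares with 0.03 over all genes. DESeq2 and limma-voom each called 6 of this list higher, and 7.55% and 6.8% of all genes. Pmaip1, the p53-induced BH3-only gene Noxa, singled out after its values were seen, was at 7.85 ± 5.71 against 0.879 ± 1.41 CPM and missed the threshold (2.83 ± 0.82, adjusted p = 0.0521). It is counted both here and among the other BCL2 family genes, of which 10 of 17 were tested. None of these 10 and none of the 17 tested regulators and relatives of p53 (of 19) passed, with medians of 0.15 and 0.22. DESeq2 and limma-voom each called 1 gene of either list.

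Of 18 genes of the DLK and JNK stress arm, which acts upstream of BH3-only genes, 2 rose and the median was -0.10: the stress factor Atf3 (299.6 ± 144 against 5.21 ± 5.57 CPM, 5.76 ± 0.56, adjusted p = 1.81e-05) and Jun (140.5 ± 45.3 against 61.7 ± 37.6 CPM, 1.21 ± 0.34, adjusted p = 0.0419). Jun was called in 3 of the 18 fits that left out a library: those without intact 12-month replicate 2, intact 8-month replicate 2 and injured 8-month replicate 1. Its call was also lost with the replicate block at 1 month (adjusted p = 0.0726) and with RLE scaling (adjusted p = 0.0557). Of 16 cell cycle genes 10 were tested and 1, the G1 kinase Cdk6, rose (1.84 ± 1.17 against 0.426 ± 0.570 CPM, 3.40 ± 0.65, adjusted p = 0.00564), with a median of -0.08. The call of Cdk6 was lost with the replicate block within age (adjusted p = 0.0695). With the dominant feature's share as a covariate no gene of the 5 lists was called.

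**Figure D4:**
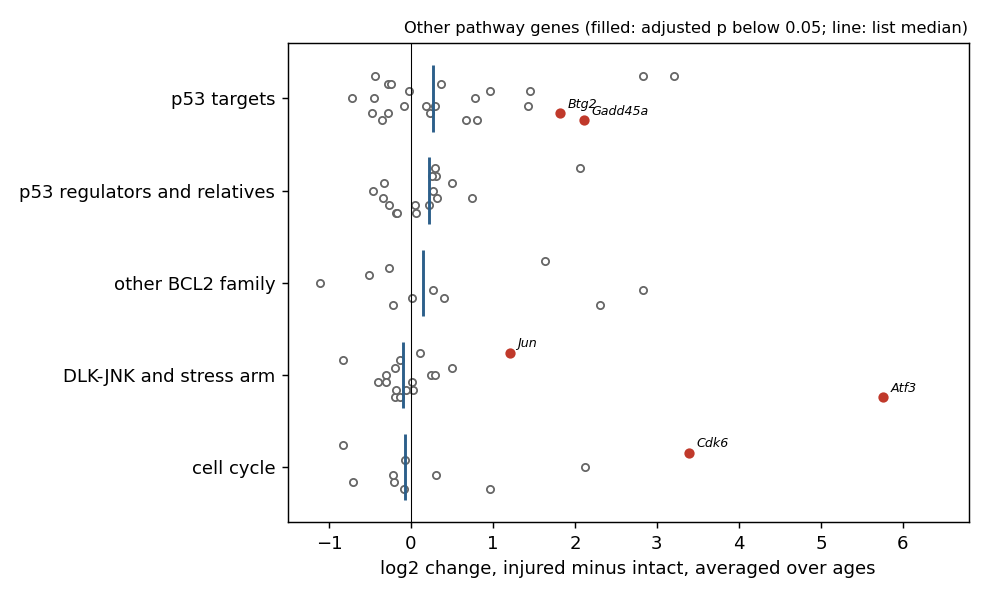
Averaged injury log2 change (x axis) of each tested gene in 5 pathway lists (y axis, list; height within a row carries no meaning). Filled points passed the test, vertical blue lines are list medians. The 5 filled points of the lists shown run from Jun at 1.21 to Atf3 at 5.76.

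Across the 18 libraries, the genes with the most similar log2(CPM + 1) profile to Cdkn1a were Fam111a (Pearson r = 0.942), Mmp16 (0.921) and Ptpn5 (0.915). For Trp53i11 they were Cyp1b1 (0.90), Prag1 (0.894) and Prc1 (0.889), and for Hrk Klhl4 (0.948), Pappa2 (0.936) and Sema4a (0.936). All 9 also rose with injury, and a profile that follows the 2 conditions is shared by any gene that does. Between the 3 called members r was 0.687 for Cdkn1a and Hrk, 0.546 for Cdkn1a and Trp53i11, and 0.537 for Trp53i11 and Hrk. Outside these, Trp53 and Bcl2 had an r of -0.739, and Trp53i11 and Bcl2l1 one of -0.689. These values describe the same 18 libraries, which share condition, age and depth.

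In single cells each group counts as 1 sample, so values are given without a test, and their CPM leave out the dominant feature and are not on the scale of the low-input values. Counts outside that feature had medians of 1033580 in injured and 291824 in intact cells at 1 month, and 3524089 and 7145018 at 1 year. In these groups 4, 6, 4 and 0 cells had fewer than 100000 counts, and 1 injured 1-year cell had none and was left out of the values. Y-linked counts were in 17 of 21 injured and 14 of 18 intact cells at 1 month, and in 1 of 22 and 0 of 8 at 1 year. Spike-in counts were 3419 or more per cell at 1 month and 118 or fewer at 1 year. Differences between 1 month and 1 year in cells thus cannot be told apart from sex or spike-in. At 1 year the summed satellite glia markers reached 52685 CPM in 1 injured cell (median 2888), against a highest value of 7257 in intact cells (median 1476). At 1 month they reached 3989 CPM in injured and 3616 CPM in intact cells (medians 183 and 226). Schwann cell markers reached 16370 against 1818 CPM at 1 month (medians 1311 and 646), and 12352 against 3719 CPM at 1 year (medians 1339 and 1173). The part of these cell types in the cell values was not tested.

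Cdkn1a, pooled over cells, was at 232 CPM (95% Poisson interval 228 to 236, counting error only) in injured and 10.2 CPM (9.22 to 11.3) in intact cells at 1 month, and at 29.3 (28.2 to 30.5) against 17.9 CPM (16.8 to 19.1) at 1 year. A few cells carried these sums. At 1 month 12 of 21 injured cells had a count (57.1%, 95% Clopper-Pearson interval 34% to 78.2%) and 6 of 18 intact cells (33.3%, 13.3% to 59%), yet 1 injured cell held 50.3% of the injured group's counts. At 1 year 15 of 21 injured cells (71.4%, 47.8% to 88.7%) and 8 of 8 intact cells (100%, 63.1% to 100%) had a count, and 1 injured cell held 74.3% of its group's. Without the cell with the most counts, the injured level at 1 month was 129.6 CPM and still above the intact one. At 1 year it was 10.02 CPM (9.29 to 10.8), below the intact 17.9 CPM, so the order there turns on 1 cell; the cell medians were 4.03 CPM in injured and 8.14 CPM in intact cells. With cells thinned to 100000 counts the shares were 47.1% and 33.3% at 1 month and 50% and 37.5% at 1 year. Injured cell 18 and intact cells 15 and 16 of 1 month passed this limit with 608, 561 and 1141 genes detected, and had no Cdkn1a count.

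The injured 1-month cells fell into a high and a low range of Cdkn1a. In 6 cells it was at 1065, 681, 586, 566, 309 and 251 CPM, and in the other 15 it was at 63.2 CPM or less, with 0 in 9 of them. All 6 high cells also had much Atf3 (352 to 3634 CPM) and much Sprr1a, a growth-associated injury gene (1425 to 8059 CPM). In the other 15 cells Atf3 reached 119.8 and Sprr1a 303 CPM. The 6 cells held 705401 to 6004381 counts, each above the limit of 100000. The names of all 6 begin with L4, as do those of 7 of the other 15; the 8 cells whose names begin with L5 all lay in the low range, at 61.1 CPM or less, with median counts of 2679138.5 against 710466 in the 13 L4 cells. The split thus runs with the name as well. Low cells 17, 18 and 19, whose names begin with L4, had 458, 608 and 310 genes detected. Their mitochondrial counts were 60.6%, 68.3% and 36.9%, and cell 21, whose name begins with L5, held 4945 counts. Cdkn1a was at 0 in these cells, which cannot show that it was not expressed there. At 1 year the injured cell with the most Cdkn1a (272 CPM) likewise had the most Atf3 (929 CPM) and Sprr1a (1554 CPM), from 187292 counts. The highest intact cells were at 98.2 CPM at 1 month and 46.2 CPM at 1 year. The border of 250 CPM was set after the values were seen. Over the 21 injured 1-month cells Spearman's rho of Cdkn1a with Atf3 was 0.645, and with Mdm2 it was -0.004, across cells that differ in depth.

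Hrk was the rarest called gene in cells. It had a count in 4 of 21 injured and 1 of 18 intact cells at 1 month (19% and 5.56%), and in 1 of 21 and 1 of 8 at 1 year (4.76% and 12.5%). All 4 of the injured 1-month cells also had Cdkn1a counts, and 3 of them were among the 6 high cells, at 18.5, 10.2 and 2.84 CPM of Hrk. The pooled level was 3.06 CPM (2.60 to 3.57) in injured and 0.33 CPM (0.171 to 0.577) in intact cells at 1 month, 66.5% of the injured counts being from 1 cell, without which the injured level was 1.15 CPM (0.862 to 1.51). At 1 year it was 0.152 CPM (0.0832 to 0.255) and 0.0178 CPM (0.00045 to 0.099), from 14 and 1 counts.

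Trp53i11 had counts in 8 of 21 injured cells at 1 month (38.1%), 4 of them among the 6 high cells, and in 1 of 18 intact cells (5.56%), with 2 counts. Pooled levels were 12.1 CPM (11.1 to 13.1) and 0.0551 CPM (0.00667 to 0.199), and 76.9% of the injured counts came from the cell with the most Cdkn1a, without which the injured level was 3.13 CPM. At 1 year the order was the other way, with 2.50 CPM (2.19 to 2.84) in injured and 9.04 CPM (8.28 to 9.87) in intact cells, where 1 cell at 69.8 CPM held 85.8% of the counts. That cell had 43.3% mitochondrial counts, against at most 6.26% in the other 7, and the fewest genes detected (12051). Without it the intact level was 1.44 CPM (1.13 to 1.81), below the injured one. Injured cells with many mitochondrial counts were kept in that comparison, among them cell 18 (25.1%) at 23.3 CPM and cell 19 (23.9%) at 6.9 CPM. The order without such cells in both groups was not tested.

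Of the remaining genes, Bax, Bcl2l1, Trp53 and Mdm2 were found in most cells of every group. Bax had pooled levels of 53.5 and 38.7 CPM in injured and intact cells at 1 month and 37.8 and 40.1 CPM at 1 year. Bcl2l1 had 90.3 and 74.2 CPM, then 60.4 and 71.8 CPM, and counts in 83.3% to 100% of cells. Trp53 had 18.5 and 24.7, then 24.9 and 24 CPM, and Mdm2 29.9 and 35.5, then 37.5 and 28.1 CPM. Bcl2 was at 4.66 CPM (4.09 to 5.29) in injured against 30.3 CPM (28.6 to 32.2) in intact cells at 1 month, and 36.4 (35.1 to 37.6) against 56.8 CPM (54.8 to 58.8) at 1 year, pooled. Deep cells weigh most in a pooled level: with cells weighted equally its means at 1 month were 14.9 and 17.7 CPM. That injured mean came largely from cells 16 and 11, at 137.3 and 126.4 CPM, with 203957 and 79135 counts. The cell medians of Bcl2 were 0 CPM in injured and 5.79 CPM in intact cells at 1 month. Among the 6 cells with high Cdkn1a, Bcl2 was 0 in 3 and 2.90 to 13.5 CPM in 3, while Bax was at 35.3 to 74 CPM and Bcl2l1 at 35.4 to 166 CPM in all 6. Bbc3 was found in 9 of 21, 9 of 18, 11 of 21 and 7 of 8 cells in the order injured and intact at 1 month, then at 1 year, at pooled levels of 3.11, 5.70, 4.19 and 4.98 CPM. Bcl2l11 was found in 3, 2, 4 and 4 cells of those groups, at 2.09, 0.936, 0.728 and 1.21 CPM.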

How the data were processed

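RNA counts of 18 low-input libraries and 69 single cells were used; the 94 methylation samples were not analysed here. The authors deposited raw fragment counts per gene, made with featureCounts, per the file headers, unstranded, over GENCODE exons and without reads mapping to several places. Trim Galore and STAR are named with the mm10 build, per the submitters' processing notes. Exon lengths in bp are a deposited column (unit: other), used for FPKM. The 10 genes, the pathway lists and the rules for naming genes (each listed gene called in the averaged injury contrast, at most 6 a list, and the 3 most similar genes to each called member) were chosen with earlier results of these data known. 1 further pathway list is not reported here.

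Low-input counts, without 92 spike-ins, were filtered with filterByExpr (14212 genes), scaled with TMM and fitted with edgeR 4.0.16 (R 4.3.3; robust quasi-likelihood, 1 mean per group, 12 residual degrees of freedom, common biological coefficient of variation 0.543). CPM of genes use TMM-scaled library sizes, and marker sums use the counts outside the dominant feature. Because counting was unstranded, reads of overlapping genes cannot be told apart. Libraries of the same number and age were compared by the correlation of their deviations over 3000 genes: at 1 month these were 0.104, 0.335 and 0.338, so the numbers were taken to pair those libraries from the data alone, while at 8 months (-0.447, -0.264, -0.00499) and 12 months (-0.107, -0.0662, 0.0674) they were not. Libraries of unequal number reached correlations of 0.0712 at 1 month, 0.534 at 8 months and 0.131 at 12 months. Such values do not establish the pairing taken at 1 month. The fitting code was tested on simulated data. Alternatives were RLE scaling, no filter, DESeq2 1.42.0, limma-voom (limma 3.58.1), spike-in scaling, the dominant feature's share as a covariate, replicate blocks, only the libraries compared, and leaving out each library. In cells, the dominant feature was left out of the denominator, intervals cover 95% counting error only, and cells under 100000 counts were left out where cells were thinned. Promoter windows are from RefSeq (GRCm38.p6).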

Additional observations from a re-analysis of the deposited data

Results flagged for a closer look

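In the 8 intact 1-year cells, 5 of the 10 genes had 1 cell far above the others, with a gap to the next cell of more than 0.526 of the group's range; chance flags about 1 in 20 groups of normally distributed values, a rate that does not hold for values with many zeros. Cell 8 had 43.3% mitochondrial counts, against at most 6.26% in the other 7, the fewest genes detected (12051) and no Trp53 count. Trp53i11 was at 69.8 CPM in cell 8 against at most 6.72 in the other cells. Bcl2l1 was also highest in cell 8, at 138.2 CPM against 88.4. Bcl2l11 was at 12.4 CPM in cell 2 against 1.05, Bax at 72.3 CPM in cell 6 against 46, and Hrk at 0.21 CPM in cell 7, from 1 count, against 0; a gene with a count in 1 cell of the group meets this rule by construction.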

How the results depend on the processing

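The 3 averaged calls, of Cdkn1a, Trp53i11 and Hrk, stood with RLE scaling, no filter, DESeq2, limma-voom, spike-in scaling, the block at 1 month and each library left out (3 genes called in each such fit but spike-in scaling). They were lost with the dominant feature's share as a covariate (0 called), and the replicate block within age, which pairs ages whose numbers did not pair, lost Hrk (adjusted p = 0.0633) and kept Cdkn1a (0.0177) and Trp53i11 (0.0243), with 329 of all genes called against 878. The block at 1 month alone, added after seeing the data, called 648 genes, and changed 1 other call of the 10 genes, Trp53i11 at 12 months. Genes called over all 14212 were 1548 with DESeq2, 11 with the covariate and 13493 with spike-in scaling; without the filter 1722 of 28520 were called.

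Of the 10 genes, spike-in scaling called 10 in the averaged contrast, 1 at 1 month, 2 at 8 months and 10 at 12 months, 10 for intact 12 against 1 month, 2 for intact 12 against 8 months and 2 in the interaction; of all 14212 genes it called 13493, 50, 631, 13675, 12776, 866 and 60 in these, so that 10 of 10 is the background there. No filter called 2, 2 and 2 at 1, 8 and 12 months, 3 for intact 8 against 1 month, 1 for each other intact comparison and 2 in the interaction, and of all 28520 genes 276, 661, 937, 841, 298, 1734 and 385. DESeq2 called 1, 1 and 2 at the 3 ages, 1 for intact 8 against 1 month, 1 for intact 12 against 8 months and 1 in the interaction, and of all genes 123, 533, 1238, 842, 2220 and 207. At 12 months 0 were called with the covariate or either block, and at 1 month 1 with only the libraries compared. Leaving out 1 library gave 0 to 1 at 1 month, 0 to 2 at 12 months, 0 to 1 for intact 8 against 1 month and 0 to 1 for intact 12 against 8 months.

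Signs turned for values that had not been called: Bcl2l11 averaged with DESeq2 (-0.25) and the covariate (-5.28), Trp53 averaged with the covariate (-0.23), Hrk at 12 months with the covariate (-0.28), and Bcl2, Bcl2l1 and Bax averaged with spike-in scaling (2.21, 2.57 and 2.45). Trp53i11 at 8 months was 2.54 with limma-voom, 2.75 with spike-in scaling, 0.64 with the covariate and 1.5 with the block within age, and ranged from -0.72 to 2.76 with 1 library left out. The causes were not tested. With 1 library left out, 2 to 4 of the p53 targets and 1 to 3 of the DLK and JNK list were called higher, as were 0 to 1 of the p53 regulators, 0 to 1 of the other BCL2 family and 1 to 2 of the cell cycle list; 1 DLK and JNK gene was called lower without intact 8-month replicate 1, and 1 BCL2 family gene without intact 12-month replicate 3.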
